A study of Mus musculus with 4 samples.

Results

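The transcripts described here are 10 rows of the count table that belong to the Dlk1-Dio3 imprinted cluster on mouse chromosome 12, out of 55353 rows in all. They are 3 long noncoding RNAs (Meg3, Rian, Mirg), 3 protein-coding genes (Dlk1, Rtl1, Dio3), the microRNA gene Mir341 and the small nucleolar RNA (snoRNA) genes AF357341, Gm24564 and Gm25856. They were picked by name with the difference between the 2 groups of libraries already known, so their fold changes are given as a description, without a test, and support nothing by themselves. RNA was measured by total RNA sequencing in 4 libraries of E14, an established line of mouse embryonic stem cells. There were 2 libraries of wild-type cells (control 1 and 2) and 2 of cells labelled as knocked out for Ssrp1 with CRISPR/Cas9 (knockout 1 and 2). Ssrp1 encodes a subunit of FACT, the histone chaperone it forms with the Supt16 product. All were labelled with strain 12910la and were grown on gelatin in serum with LIF. The labels do not say how many clones were used or whether replicate libraries stem from separate cultures, so every p-value measures the spread between these libraries, which may be technical. A vector for an shRNA against Usp7 and puromycin selection appear in the treatment text, and whether the controls received them is not stated.

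The Dlk1-Dio3 cluster is expressed according to parent of origin. The maternal chromosome makes noncoding RNAs from 1 strand, beginning at Meg3 and running on through Rian and Mirg, and these carry many snoRNAs and microRNAs; the paternal chromosome makes the mRNAs of Dlk1, Rtl1 and Dio3. DNA methylation of an intergenic control region between Dlk1 and Meg3, present on the paternal copy, sets this pattern, and loss of the maternal RNAs is a known variation among cultured mouse pluripotent stem cell lines. Neither methylation nor the parental origin of reads was measured here, so the text speaks of the table's rows and not of alleles.

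Ssrp1 itself was counted at 6224 and 7486 reads in the controls against 7140 and 7787 in the knockout-labelled libraries. Its log2 fold change (knockout minus control) was 0.11 ± 0.06 (SE; adjusted p = 0.226, edgeR), so its RNA was not shown to differ. A small Cas9 lesion can leave a transcript in place, and the count therefore does not check the labels. Total counts ran from 22611434 to 25344190 per library. The ribosomal-RNA-like rows Gm26917 and Gm42418 held 9.72% and 10.3% of the control counts and 6.3% and 4.64% of the knockout counts, and with these rows left out 2884 genes were higher and 2992 lower, Rian had a log2 fold change of −2.36, Meg3 −2.11 and Mirg −1.78, close to the values given further on. Over all rows, 33.6% of the 17482 genes tested passed an adjusted p of 0.05 (edgeR quasi-likelihood F test with Benjamini-Hochberg adjustment), 2877 of them higher and 3000 lower in the knockout-labelled libraries. With library size alone as the scaling, the split was 3887 higher and 2215 lower, and without control 1 the higher count was 1915.

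The sequence upstream of Meg3 is shown because the transcription of the noncoding strand starts there. It is the window from 250 bases before to 50 bases after the first Meg3 start in RefSeq (GRCm38.p6), chr12:109540746-109541045, plus strand. Capitals mark matches to 3 motifs searched on both strands: the cAMP response element TGACGTCA, the TATA motif TATAAA, which here matches both strands with overlap, and TGCCGC, the core of the site of the imprint protein ZFP57, here as its complement.
Meg3 promoter: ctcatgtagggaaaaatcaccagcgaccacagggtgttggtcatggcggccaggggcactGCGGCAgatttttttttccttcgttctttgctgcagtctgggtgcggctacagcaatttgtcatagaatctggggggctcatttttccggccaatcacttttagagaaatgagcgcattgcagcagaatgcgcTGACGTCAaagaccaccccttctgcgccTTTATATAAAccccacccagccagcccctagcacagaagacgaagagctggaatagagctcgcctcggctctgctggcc
Of all 32851 RefSeq windows of 300 bases, 1.79% hold TGACGTCA, 13.6% TATAAA and 11.6% TGCCGC. The window has 13 CG dinucleotides, against a median of 7 over all windows, 9 at the start of Dlk1, 25 at that of Dio3 and 0 at that of Rian. The window at the RefSeq start of Mirg has 10, and it lies inside the longer Mirg gene of GENCODE. A match is a description of the letters and was not tested as a site.

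The 3 snoRNA members are printed next, because their rows are among the snoRNA rows of the cluster with enough reads to be tested. They are of the C/D type, which guides methylation of other RNAs or, as orphans, has no known target. Capitals mark matches to the C box sequence TGATGA within the first 18 bases and the D box sequence CTGA within the last 18 (GENCODE M21, mm10). In Gm24564 the marked CTGA lies farther from the end than in AF357341 and Gm25856. Whether a match is a working box was not tested.
Gm24564: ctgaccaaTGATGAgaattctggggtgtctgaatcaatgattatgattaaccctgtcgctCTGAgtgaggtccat
AF357341: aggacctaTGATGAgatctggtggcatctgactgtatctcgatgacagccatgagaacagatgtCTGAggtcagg
Gm25856: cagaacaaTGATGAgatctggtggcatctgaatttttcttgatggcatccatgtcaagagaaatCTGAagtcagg
AF357341 and Gm25856 are 78.7% identical, and Gm24564 is 62% and 60.3% identical to them. Of the 23 snoRNA rows of the interval, 12 carry both matches at these places, and so do 20.2% of the 1507 snoRNA transcripts of the annotation. Because these genes resemble each other, reads of 1 copy may have been counted at another. Whether reads at these rows come from the snoRNAs or from host RNA was not measured.

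For the microRNAs, the mature sequences (RefSeq) show the targeting seeds that the microRNA rows encode. Capitals mark the seed, bases 2 to 8. The first pair comes from the member Mir341, the next 3 pairs share a seed within each pair, and the last are from rows opposite the Rtl1 gene. In each of those 3 pairs the first comes from a row that fell (Mir1193, Mir758, Mir453) and the second from a row with too few reads to be tested (Mir379, Mir1197, Mir496a).
miR-341-5p: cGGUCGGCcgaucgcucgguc
miR-341-3p: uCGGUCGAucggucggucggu
miR-1193-5p: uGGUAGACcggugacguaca
miR-379-5p: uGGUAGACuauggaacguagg
miR-758-5p: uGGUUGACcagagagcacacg
miR-1197-5p: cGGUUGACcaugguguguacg
miR-453: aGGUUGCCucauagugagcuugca
miR-496a-5p: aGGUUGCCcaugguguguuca
miR-127-3p: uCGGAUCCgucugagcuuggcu
miR-433-3p: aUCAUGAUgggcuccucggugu
Mature sequences matched 61 of the 67 microRNA rows of the interval. Their 114 mature sequences have 104 distinct seeds, 10 of which are shared. The libraries were not made for small RNA, so reads at these rows come from precursor or host RNA and do not measure the mature microRNAs.

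Rian, a long noncoding RNA that hosts many snoRNAs, was the most abundant member. It lies at chr12:109603940-109661716 on the plus strand. It was counted at 18374 and 20185 reads in the controls against 3770 and 3818 in the knockout-labelled libraries, that is 833 and 824 against 161 and 160.5 CPM (counts scaled to library size with TMM, as CPM throughout). Both knockout libraries lay far below both controls, and within each group the libraries were nearly equal. The means were 829 ± 6.21 and 161 ± 0.589 CPM (SD, n = 2), a ratio of 5.15, and the log2 fold change was −2.36 ± 0.06 (SE).

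Meg3, the first noncoding RNA of the maternal strand and a lincRNA with reported growth-restraining activity, lies at chr12:109541001-109571726. Its counts were 4278 and 4461 in the controls against 978 and 1071 in the knockout-labelled libraries, or 194 and 182 against 41.8 and 45.0 CPM. The groups did not overlap, and the gap between them was many times the distance within either. The ratio of the means, 188 ± 8.34 and 43.4 ± 2.24 CPM (SD, n = 2), was 4.33, with a log2 fold change of −2.11 ± 0.07 (SE).

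Mirg, the noncoding host of a dense microRNA group at chr12:109729764-109749460, gave 1480 and 1416 reads in the controls against 374 and 482. In normalised terms this was 67.1 and 57.8 against 16.0 and 20.3 CPM. The groups were again apart, with more distance between the knockout libraries than for Rian. The log2 fold change was −1.78 ± 0.11 (SE), a ratio of 3.45 between means of 62.5 ± 6.56 and 18.1 ± 3.01 CPM (SD, n = 2). Over 10 alternative settings the fold change of Mirg ranged from −1.97 to −1.62, that of Meg3 from −2.17 to −2.03 and that of Rian from −2.38 to −2.28.

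**Figure D1:**
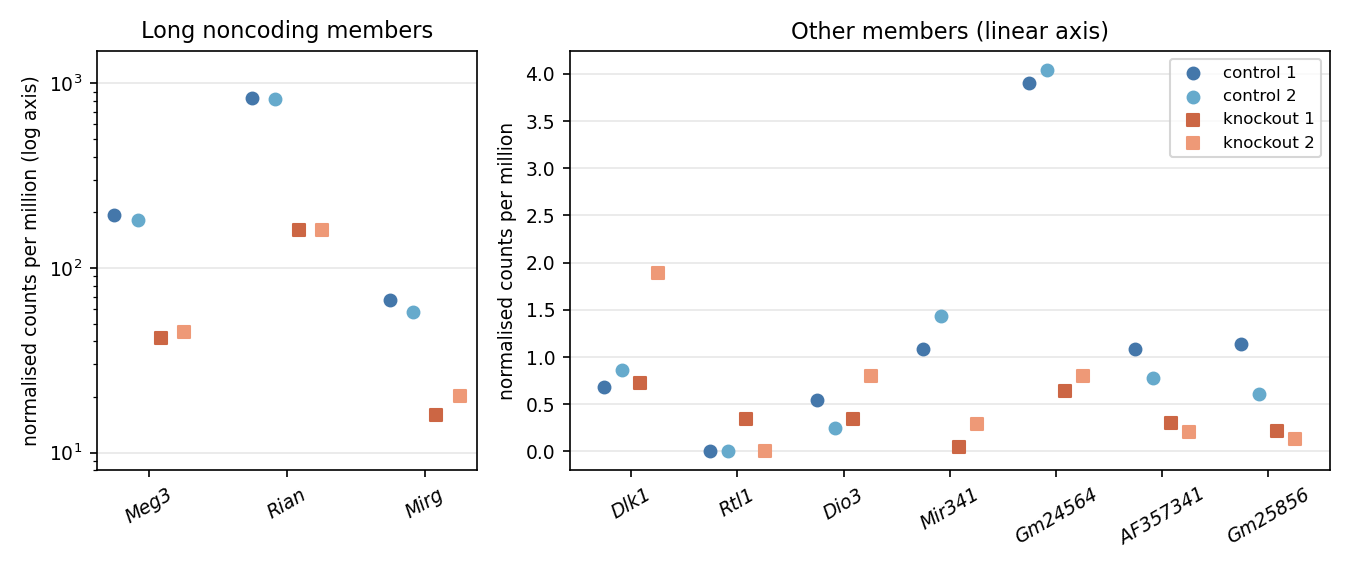
Normalised CPM of the 10 members, 1 point per library, with the long noncoding members on a log axis (left) and the other 7 on a linear axis (right). Meg3, Rian, Mirg and the 4 small RNA rows lie lower in both knockout-labelled libraries, while the points of Dlk1 and Dio3 overlap.

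Of the 10 members, 9 passed the filter on low counts; Rtl1 did not. Of these 9, 7 were lower past the threshold, 0 higher and 2 uncalled, where 17.2% of all genes tested were lower; the members were chosen on this contrast, so nothing is read from that count. In the same 7 the groups did not overlap, which held in the lower direction for 33.3% of all genes tested. As a description of where they stand, 0.961% of genes tested had a fold change at or under that of Mirg, 97 genes at or under that of Meg3 and 67 at or under that of Rian, each count including the gene itself. No other gene that was at least as abundant as Rian in the controls had as low a fold change. For Meg3 that count was 3 with itself, and for Mirg 7. In bulk RNA, fewer cells that express a gene and less RNA per cell cannot be told apart.

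Per kilobase of annotated exon, Rian stood highest among the long members in the controls, with 45.5 CPM per kb, followed by Meg3 with 10.4 and Mirg with 8.57. In the knockout-labelled libraries the levels were 8.82, 2.40 and 2.49 CPM per kb. Meg3 (10.7 and 10.1 in the controls) and Mirg (9.20 and 7.93) kept their order in both controls, but in the knockout libraries Meg3 (2.31 and 2.49) and Mirg (2.19 and 2.78) overlapped, so that their order there is not resolved.

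Between Rian and Mirg the table has 2 more abundant noncoding rows that were not members. They were found by their position between these members, which were picked on this contrast. Gm37899, a row of the annotation's class for transcripts awaiting experimental proof, at chr12:109668869-109677585, begins 7.153 kb after the end of Rian. It was counted at 1145 and 1174 reads in the controls against 227 and 206 in the knockout-labelled libraries, with no overlap. Its log2 fold change was −2.44 ± 0.11 (SE; adjusted p = 1.52e-12, edgeR). The lincRNA B830012L14Rik, at chr12:109695586-109702587, had 1305 and 1419 reads against 371 and 366. It also fell without overlap, by 1.91 ± 0.09 on the log2 scale (SE; adjusted p = 6.18e-12, edgeR).

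The 5 long transcripts in a row (Meg3, Rian, Gm37899, B830012L14Rik, Mirg) together reached 1205 and 1170 CPM in the controls against 245 and 249.8 in the knockout-labelled libraries. Rian made up 69.1% and 70.4% of that sum in the controls and 65.9% and 64.2% in the knockout libraries. The share of Mirg was 5.57% and 4.94% against 6.54% and 8.11%, and that of Meg3 15.6% to 16.1% against 17.1% and 18% in the knockout-labelled libraries. So the composition moved by a few percentage points while the sum was lower, with Rian and Gm37899 taking less and the other 3 taking more in both knockout-labelled libraries. The quotient of Rian to Meg3 was 4.30 and 4.52 in the controls against 3.85 and 3.56 in the others. With 2 libraries a group, this shift in composition was not tested.

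**Figure D2:**
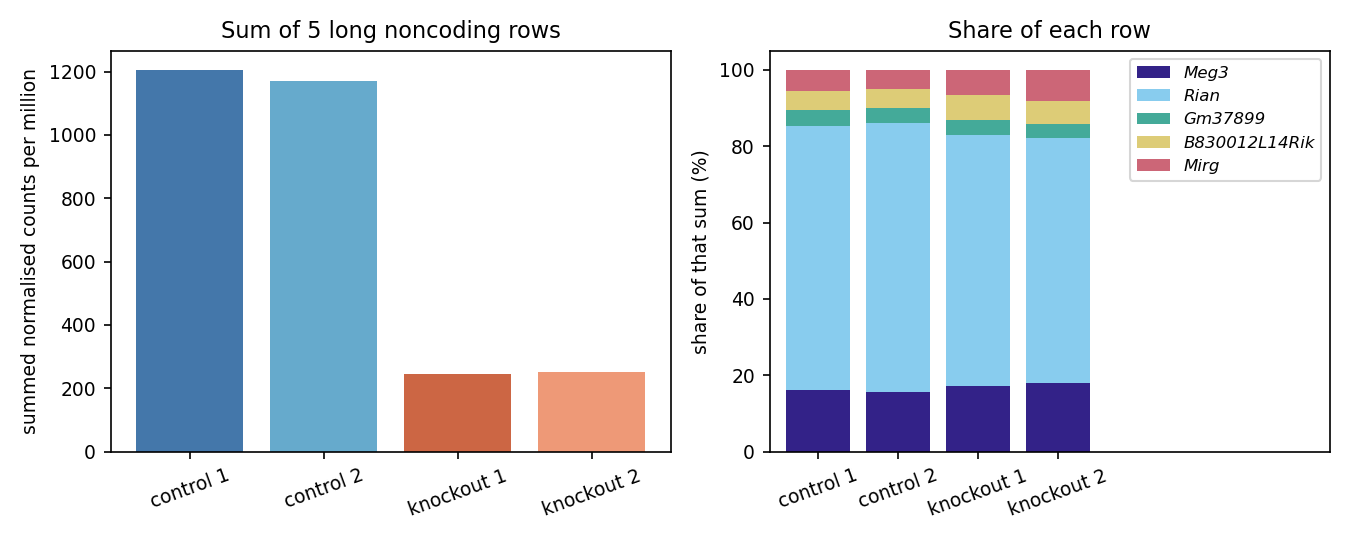
Left, the summed normalised CPM of the 5 long noncoding rows, 1 bar per library; right, the share of each row in that sum, in percent. The sum drops from 1205 and 1170 CPM to 245 and 249.8 in the knockout-labelled libraries, and the share of Rian drops from 69.1% and 70.4% to 65.9% and 64.2%.

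From the start of Meg3 to the end of Mirg the plus strand holds 90 rows of the table, 62 of them with reads. Of those 62, 59 had a lower mean in the knockout-labelled libraries and 3 a higher one. The reads of all 90 summed to 1237 and 1196 CPM in the controls against 250.5 and 256.5 in the knockout-labelled libraries, a ratio of 4.80. Rian supplies most of this sum. Without the members, the 83 remaining rows gave 136 and 125 against 30.1 and 29.4 CPM, a ratio of 4.38.

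Over the whole interval from Dlk1 to Dio3 (828.275 kb, both strands) there were 105 rows besides the members, and 16 of them were tested. Of those, 14 fell, 0 rose and 2 did not pass (87.5% called, against 33.6% of all genes tested). The low rows among them entered the test through their control reads, so their count had to lean this way. The abundant Gm37899 and B830012L14Rik, which pass in either group, do not carry that limit of the filter. They lie on the same strand between members picked on this contrast, so they too are given as a description. Leaving out control 1 left 8 calls of lower.

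**Figure D3:**
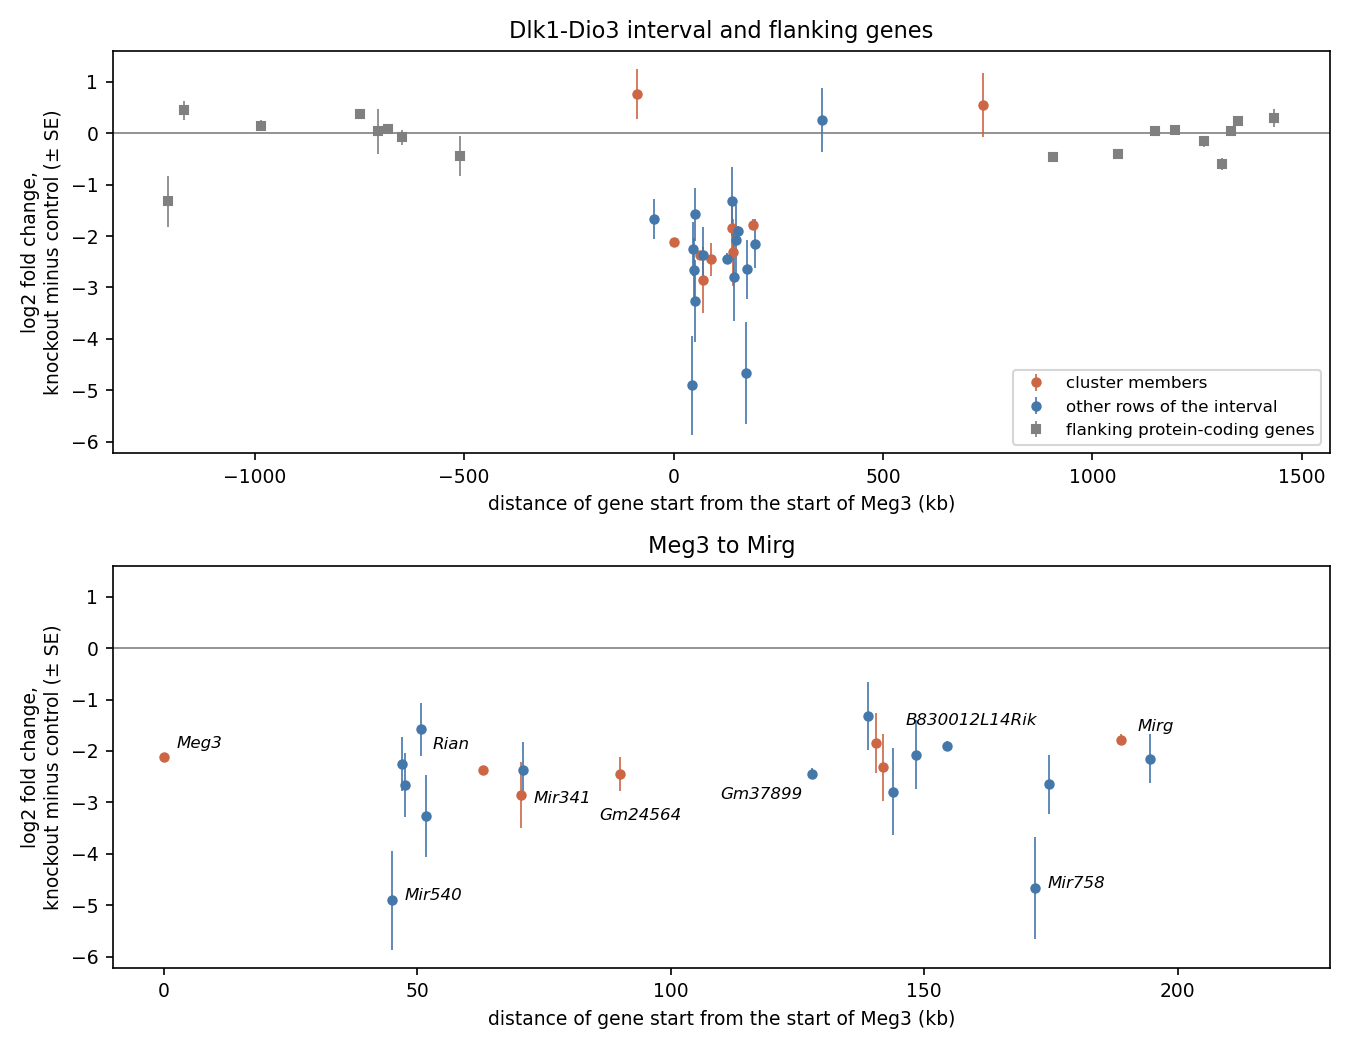
Log2 fold change (knockout minus control, with SE bars) of every tested row of the interval and of the flanking genes, against distance in kb from the start of Meg3 (top), with the stretch from Meg3 to Mirg enlarged (bottom). All tested rows between Meg3 and Mirg lie below 0, from −1.32 (AF357428) to −4.91 (Mir540). Outside that stretch, Gm34081 (−1.67) and the flanking gene Cyp46a1 (−1.33) also lie well below 0. Dlk1, Dio3 and the other genes outside scatter around 0.

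Mir341, the microRNA member, sits inside an intron of Rian at chr12:109611500-109611595. Its row held 24 and 35 reads in the controls against 1 and 7 in the knockout-labelled libraries. The groups were apart, but the small counts left the size loose: the log2 fold change of −2.86 ± 0.64 (SE) went from −4.72 without knockout 2 to −2.08 without knockout 1. Mir1188, a neighbour in the same host, gave 33 and 40 reads against 11 and 3 (log2 fold change −2.38, adjusted p = 0.00213, edgeR).

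The other microRNA rows were lower in sum as well. Summed over the 66 rows that were not members, reads numbered 485 and 387 in the controls against 87 and 108 in the knockout-labelled libraries, a ratio of 4.58 after scaling. Of the 46 rows with reads, 43 had a lower mean in the knockout libraries and 3 a higher one. By place along the strand, the ratio was 4.54 for the 15 rows before Rian, 5.88 for the 4 within it, Mir341 included, and 4.51 for the 40 after it.

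Before Rian, 6 microRNA genes lie opposite the Rtl1 exon, where the maternal antisense transcript is known to carry microRNAs against the Rtl1 mRNA. Together they had 70 and 76 reads in the controls against 10 and 35 in the knockout-labelled libraries, which is lower in both with a wide gap between the knockout libraries. Mir127 had 16 and 24 against 0 and 4 reads (log2 fold change −3.26, adjusted p = 0.00337, edgeR), a call lost in some of the alternatives. Mir433 had 34 and 34 against 5 and 18 (−1.58, adjusted p = 0.0230), and this call too was lost in some. Nearby, Mir540 was counted at 14 and 23 against 1 and 0 reads; its ratio of scaled counts was 37.5, with an exact 95% interval for counting error of 6.33 to 1521.

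Mir3070a and Mir3070b, near copies of each other that may share reads, had 43 and 28 against 7 and 8, and 49 and 20 against 8 and 3. Both passed (adjusted p = 0.00213 and 0.00239, edgeR) and both lost the call without control 1. After Rian, Mir1193 gave 28 and 29 reads against 4 and 5, Mir758 18 and 13 against 0 and 1, and Mir453 63 and 33 against 12 and 10. Mir1193, Mir758 and Mir453 had log2 fold changes of −2.65, −4.67 and −2.15 (adjusted p = 0.00123, 0.00103 and 0.00144, edgeR), the size for Mir758 resting on 1 read in the knockout libraries (ratio 31.4, exact 95% interval 5.24 to 1281).

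A further 24 small RNA rows had at least 10 counts over the 4 libraries and too few for the test. Together they had 164 and 141 reads in the controls against 37 and 59. All 24 had a lower mean in the knockout-labelled libraries, but in 11 of them the groups overlapped, among them Mir665, Mir434, Mir411, Mir654, Mir300, Mir539, Mir541, Mir496a, Gm27379 and Gm22981. The remaining 1 of these, Mir376c, had 9 and 5 against 7 and 6 reads, nearly level between the groups. Mir434, opposite Rtl1, was as level, with 3 and 4 against 1 and 6.

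Among the 13 rows whose groups were apart, 4 had no read in either knockout-labelled library: Mir493 (8 and 13 in the controls), Mir666 (10 and 4), Mir376a (6 and 5) and Mir337 (4 and 6). The others were Mir673, Mir431, Mir432, Mir370, Mir380, Mir667, Mir544 and the snoRNA rows Gm23736 and Gm25854, of which Gm25854 had 8 and 11 against 3 and 3 reads. Some were apart only barely. Mir673 had 4 and 10 against 4 and 3 reads, and Gm23736 had 3 and 6 against 2 and 2. Of all genes tested, 33.3% had groups apart in the lower direction.

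**Figure D4:**
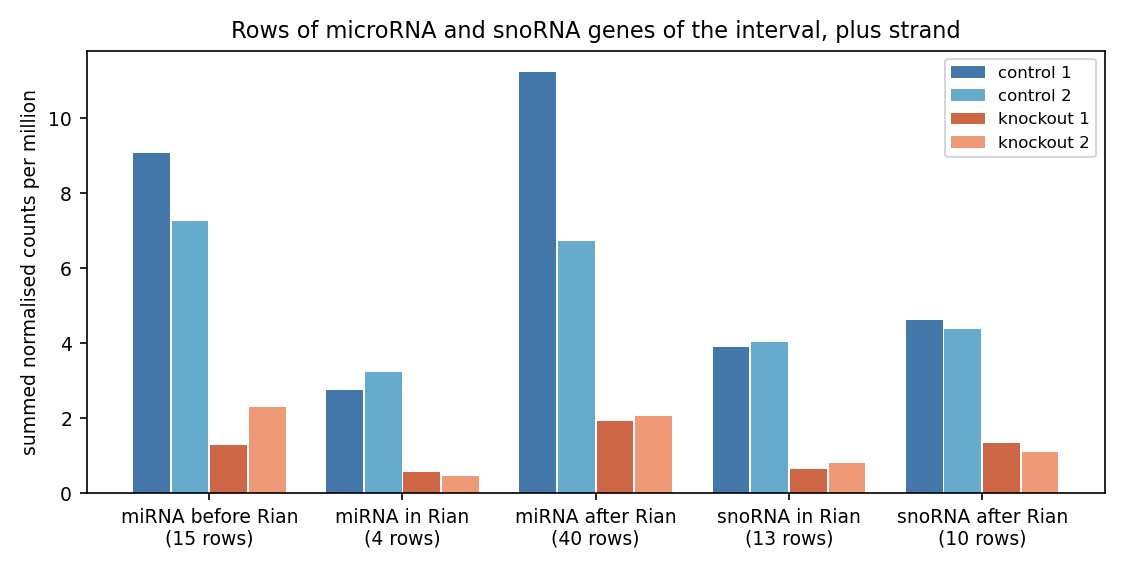
Normalised CPM summed over the microRNA and snoRNA rows of the plus strand by their place relative to Rian, 1 bar per library. Each summed group is lower in both knockout-labelled libraries than in both controls.

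Gm24564 was the most abundant snoRNA member and lies in a Rian intron at chr12:109631074-109631148. It had 86 and 99 reads in the controls against 15 and 19 in the knockout-labelled libraries, or 3.90 and 4.04 against 0.642 and 0.799 CPM. Within each group the libraries were close, and the log2 fold change was −2.45 ± 0.33 (SE), near that of its host. Of the 13 snoRNA rows within Rian it was the only one with any read.

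AF357341 and Gm25856, at chr12:109681519-109681593 and chr12:109682994-109683068, lie between Rian and Mirg outside any annotated host. AF357341 had 24 and 19 reads against 7 and 5, a log2 fold change of −1.85 ± 0.58 (SE). Gm25856 had 25 and 15 against 5 and 3, −2.32 ± 0.65 (SE), with −1.83 when control 1 was left out. For both, the lowest control lay above the highest knockout library. The 10 snoRNA rows after Rian, these included, summed to 102 and 107 reads against 31 and 26, a ratio of 3.72.

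The snoRNA rows that were not members were thinner. Gm23787 fell from 10 and 19 reads to 0 and 4 (log2 fold change −2.79, adjusted p = 0.0151, edgeR), and Gm25224 from 16 and 18 to 6 and 2 (−2.07, adjusted p = 0.0207). AF357428, the row whose sequence is nearest to AF357341 (82.7% identical), had 13 and 12 against 7 and 3 reads and did not pass (−1.32, adjusted p = 0.137). Each of the 6 such rows with reads had a lower mean in the knockout-labelled libraries.

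Which small rows had reads followed the annotation. Of 22 small RNA rows on the plus strand that overlap an exon of a longer gene of that strand, 20 had 0 reads in all libraries. On the plus strand without such an exon it was 8 of 63. The 8 rows on the minus strand, 2 of them in a same-strand exon, all had 0. A row at 0 therefore need not mean that its stretch of RNA is absent, since how reads shared by overlapping genes were assigned is not given in the sources used here.

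Dlk1, the paternally expressed gene for a transmembrane protein of the Notch ligand family, lies 77.665 kb before Meg3 at chr12:109452823-109463336. It was barely detected, with 15 and 21 reads in the controls against 17 and 45 in the knockout-labelled libraries (0.680 and 0.858 against 0.727 and 1.89 CPM). Knockout 1 lay between the controls, so the groups overlapped. The log2 fold change of 0.76 ± 0.49 (SE) became −0.09 without knockout 2 and 1.29 without knockout 1, so it rests on knockout 2.

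Dio3, which encodes the deiodinase that inactivates thyroid hormone, is at the far end, chr12:110279068-110281097, 529.608 kb after Mirg. Its reads were 12 and 6 in the controls against 8 and 19 in the knockout-labelled libraries, and the groups overlapped. The log2 fold change of 0.55 ± 0.63 (SE) ran from −0.19 without knockout 2 to 1.20 without control 1. Rtl1, the retrotransposon-derived gene needed in placenta, runs on the minus strand at chr12:109589193-109600330. It had 0 and 0 reads in the controls against 8 and 0 in the knockout-labelled libraries, so all its reads came from knockout 1. The 3 coding members together held 27 and 27 reads in the controls against 33 and 64 in the others. With so few reads, no difference was detected in Dlk1 or Dio3, and Rtl1 had too few for the test.

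Per kilobase of exon the coding members stayed far below the noncoding ones. Dlk1 had 0.136 CPM per kb in the controls and 0.231 in the knockout-labelled libraries, Dio3 0.194 and 0.281, and Rtl1 0 and 0.0269. The order of Dlk1 and Dio3 was not resolved, since their single libraries ranged from 0.120 to 0.334 and from 0.121 to 0.393 CPM per kb.

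Around these genes, 3 minus-strand or neighbouring noncoding rows had enough reads to be described. Gm34081, a lincRNA on the minus strand between Dlk1 and Meg3 (chr12:109493529-109516740), had 46 and 55 reads in the controls against 17 and 15. It fell by 1.67 ± 0.39 on the log2 scale (SE; adjusted p = 0.00254, edgeR) with no overlap. RefSeq gives it 5 starts, the closest 847 bp from the first Meg3 start and pointing away from it. Beside Dio3, Dio3os had 5 and 2 against 5 and 10 reads and was not tested. Gm3379, a processed pseudogene on the minus strand 144.992 kb after Mirg, had 7 and 12 against 7 and 16 reads and did not pass (0.26, adjusted p = 0.786, edgeR).

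Outside the interval, values lay near those of the rest of the chromosome. Of the 10 nearest protein-coding genes on each side, 17 were tested, with 2 higher and 4 lower, 35.3% called, against 30.3% of the 670 genes tested on chromosome 12 outside the interval. Without either control, in turn, 1 was higher. The median log2 fold change of the flanking genes was 0.04, that of the 670 genes 0.03 and that of all genes tested 0.00. Before Dlk1, Yy1, which encodes a zinc-finger transcription factor, stood at 91.6 and 89.7 CPM in the controls against 121 and 114 in the knockout-labelled libraries (0.38 ± 0.07 SE; adjusted p = 0.000215, edgeR). Wars, a tRNA synthetase gene, stood at 55.9 and 52.3 against 57.5 and 56.4 CPM and did not pass (adjusted p = 0.494). Cyp46a1, which encodes a cholesterol hydroxylase, had 41 and 28 against 8 and 20 reads (−1.33, adjusted p = 0.0426) and lost its call in some alternatives.

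After Dio3, Dync1h1, the heavy chain gene of cytoplasmic dynein, fell from 1170 and 1174 CPM to 885 and 889.7 (−0.40 ± 0.06 SE; adjusted p = 1.44e-05, edgeR). Ppp2r5c, a phosphatase 2A subunit gene, fell by 0.46 and Zfp839 by 0.60 (adjusted p = 9.51e-06 and 0.000238). Tecpr2 was higher by 0.24 (adjusted p = 0.0387), a call lost in some alternatives, and the abundant chaperone gene Hsp90aa1 had 5901 and 6031 against 6331 and 5990 CPM (0.05, adjusted p = 0.529). The lowest fold change among the tested flanking genes, that of Cyp46a1, was smaller in size than that of Rian, Meg3 or Mirg; whether these differ was not tested.

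A list of 15 imprint methylation regulator genes, only some of which encode enzymes that set or erase DNA methylation, was compared in the same fit. Of 15 tested, 8 rose, 5 fell and 2 did not pass (86.7% called, against 33.6% of all genes tested), with a median log2 fold change of 0.21 against 0.00 for all genes. Without control 1 the counts were 5 and 3. Dnmt3b, a de novo DNA methyltransferase gene, rose from 92.7 and 103.5 CPM to 232.5 and 257.5 (1.32 ± 0.07 SE; adjusted p = 3.85e-11, edgeR). Dnmt3a rose by 0.31 and the cofactor gene Dnmt3l by 0.47 on that scale (adjusted p = 0.000826 and 6.72e-06). Dppa3, whose product protects imprints in the early embryo and is known to guard the Meg3 region during reprogramming to pluripotency, rose from 2.22 and 2.90 to 12.5 and 14.7 CPM (2.40 ± 0.19 SE; adjusted p = 7.56e-09).

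Of the 3 demethylating enzyme genes, Tet1 and Tet2 fell and the less abundant Tet3 rose, from 10.6 and 11.7 CPM to 15.4 and 17.1 (0.55 ± 0.13 SE; adjusted p = 0.00296, edgeR). Tet1 went from 1714 and 1716 CPM to 1059 and 1191 (−0.61 ± 0.06 SE; adjusted p = 2.30e-07, edgeR), and Tet2 from 518 and 482 to 330.1 and 369 (−0.52, adjusted p = 5.52e-06). The maintenance genes Dnmt1 (−0.17) and Uhrf1 (−0.27) and the imprint zinc-finger gene Zfp445 (−0.27) fell as well, all less than Tet1. Zfp57, whose product holds methylation at imprints, stood at 245 and 247 against 212 and 229 CPM and did not pass (adjusted p = 0.0657), nor did Aff3 (−0.28, adjusted p = 0.210). These values stand beside those of the cluster; a relation between them was not tested.

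**Figure D5:**
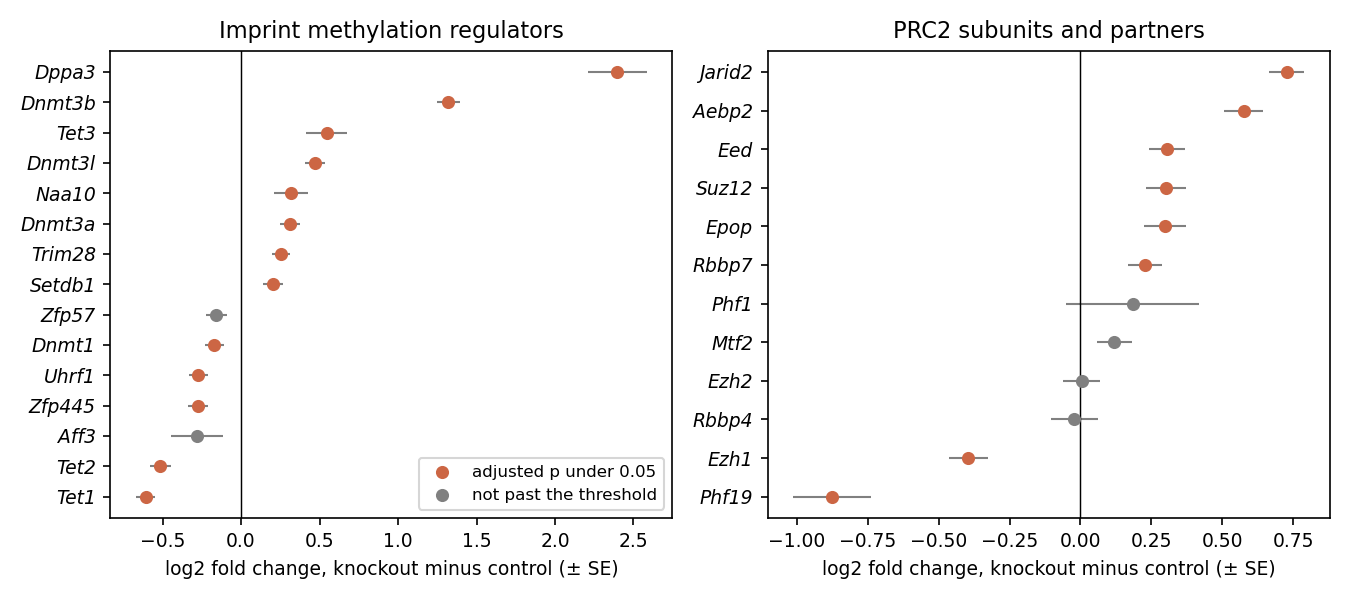
Log2 fold change (knockout minus control, with SE bars) of the imprint methylation regulators and of the PRC2 subunits and partners; orange points passed an adjusted p of 0.05 and grey points did not. Dppa3 and Dnmt3b lie farthest to the right, at 2.40 and 1.32, and Phf19 and Tet1 farthest to the left, at −0.88 and −0.61.

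Polycomb repressive complex 2 (PRC2), which places repressive methylation on histone H3 and is known to bind Meg3 RNA, was followed through 12 genes. All were tested, 6 rose and 2 fell (66.7% called, against 33.6% of all genes tested). Jarid2, an accessory subunit gene, rose from 329 and 317 CPM to 515.5 and 552.5 (0.73 ± 0.06 SE; adjusted p = 2.41e-08, edgeR). Aebp2 rose by 0.58 and the core subunit gene Eed by 0.30 on the log2 scale (adjusted p = 2.55e-06 and 0.000826). Phf19 fell by 0.88 and the catalytic gene Ezh1 by 0.40 (adjusted p = 5.36e-05 and 0.000169), while the catalytic gene Ezh2 was at 0.00 (adjusted p = 0.971).

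Imprinted genes elsewhere in the genome were taken as 2 lists by the parental copy they are known to be expressed from. Among 22 maternally expressed genes, 17 were tested, 3 rose and 3 fell, with a median of 0.04. The share called, 35.3%, was near the 33.6% of all genes tested; without knockout 1, 5 fell. Grb10, a growth factor receptor adaptor gene, rose from 11.3 and 10.5 CPM to 25.2 and 23.7 (1.17 ± 0.12 SE; adjusted p = 3.10e-07, edgeR), and Phlda2 by 0.89. Gnas fell by 0.54, Copg2 by 0.30 and Igf2r by 0.23 (adjusted p = 1.36e-05, 0.00296 and 0.00668), the call of Igf2r being lost in several alternatives. H19, another maternally expressed noncoding RNA, stood at 48.6 and 46.7 against 43.5 and 47.2 CPM and did not pass (−0.07, adjusted p = 0.555).

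Of 24 paternally expressed genes in the table, 19 were tested, 3 rose and 7 fell, with a median of −0.11. The share called was 52.6%, against 33.6% of all genes tested. Mest fell from 120 and 115 CPM to 42.2 and 39.0 (−1.53 ± 0.07 SE; adjusted p = 5.72e-12, edgeR), and Peg3, a zinc-finger gene, from 221 and 212 to 86.8 and 94.4 (−1.26, adjusted p = 2.73e-11). Peg13, a noncoding RNA, fell by 1.49 (adjusted p = 0.000115). Sfmbt2 rose by 1.86 and Peg10 by 0.66 (adjusted p = 4.36e-13 and 6.92e-08). None of the tested genes of these lists had a fold change as low as that of Rian, Meg3 or Mirg, the lowest being that of Mest.

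By their levels over the 4 libraries (log2 CPM, centred per gene, Euclidean distance), the genes outside the interval closest to Rian were Lrrc31, Atp2a3, Myh9, Ncam1 and Lexm, at distances of 0.163 to 0.227. Myh9, the gene of a non-muscle myosin heavy chain, had 309 and 318 CPM in the controls against 53.4 and 62.6 in the knockout-labelled libraries. Inside the interval Gm37899 was at 0.153, Meg3 at 0.268, B830012L14Rik at 0.460 and Mirg at 0.641. With 4 libraries the measure mostly reads the size of the group difference.

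The libraries carried the embryonic stem cell markers fixed for the check. All 12 were tested and present, with summed levels of 5471 and 5609 CPM in the controls against 4573 and 4538 in the knockout-labelled libraries, 4 of them higher and 7 lower, where 16.5% of all genes tested were higher and 17.2% lower. Of the 11 primitive endoderm markers tested, 8 rose and 0 fell, where 16.5% of all genes tested were higher. Lama1, Amn and Sox17 did not pass. The list summed to 322 and 311 against 453 and 457 CPM. Gata6, with the highest fold change of those tested, stood at 0.589 and 0.858 against 4.58 and 4.08 CPM. All 12 tested markers of the rare state that resembles the 2-cell embryo rose, from a sum of 0.907 and 0.490 to 84.3 and 85.2 CPM. These rows entered the test through their knockout reads, so that count had to lean this way. Trophoblast markers summed to 86.2 and 85.9 against 133 and 143 CPM, with 2 of 6 tested higher and Prl3d1 and Tpbpa at 0 in all libraries. Fibroblast and feeder markers summed to 2283 and 2253 against 1848 and 1935 CPM, most of it Fn1. Of 5 tested, 1 was higher and 2 lower (60% called, against 33.6% of all genes tested). Postn, Lum and Dcn were at 0 in all libraries. The summed levels of these lists differed between the groups. For the trophoblast list the share called, 33.3%, was near the 33.6% of all genes tested. Tfap2c held most of that list's sum, at 53.8 and 51.6 CPM in the controls against 91.0 and 94.4. The part of these lists in the values of the cluster was not tested.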

How the data were processed

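Total RNA of 4 libraries, 2 per group, was depleted of ribosomal RNA and sequenced, per the labels' protocols. The authors deposited whole-number read counts per gene symbol without normalization. Per the submitters' processing notes, cutadapt, HISAT2, featureCounts and the mm10 build were used; for tool versions, annotation release, strand setting and multi-mapping reads, the entry is: not given in the sources used here, so overlapping, antisense and near-identical genes may share reads. Column names carry OK where titles carry KO and were mapped by group and number; 0 columns were left unmapped. Replicate libraries differed by more than counting noise (chi-square per degree of freedom 3.37 for controls and 11.5 for knockouts), so none repeats another.

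Counts were filtered with filterByExpr of edgeR 4.0.16 in R 4.3.3 (minimum count 10, minimum total 15; 17482 genes left), scaled by TMM and compared with the quasi-likelihood F test (2-sided, prior count 0.125, 2 residual degrees of freedom, common biological coefficient of variation 0.0666), adjusting p over the 17482 genes by Benjamini-Hochberg (threshold 0.05). Each SE is the absolute log2 fold change over the root of the F statistic. CPM were computed here from the counts and TMM-scaled library sizes. The fit was tested on simulated data. Floors of 3 counts correspond to 0.123 to 0.136 CPM, and floors and intervals cover counting error only. Positions come from GENCODE M21 (mm10), where 53281 symbols matched, or through RefSeq (968); 107 matched several genes and 997 none.

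The members and lists were chosen with earlier results of these data known. Named besides the members were the rows of the interval with at least 10 counts, flanking genes past the threshold and the most abundant ones. So were the 5 genes with the smallest adjusted p in each list outside the marker lists, Ssrp1, and the 5 genes nearest to Rian. From the marker lists only some genes were named, and not by this rule. Other list genes (Dnmt3a, Tet3, Dnmt1, Uhrf1, Zfp445, Zfp57, Aff3, Ezh2, H19) and the rows Mir379 and Mir1197 were named after their values were seen. Alternatives were DESeq2 1.42.0, library size scaling, removal of Gm26917 and Gm42418, no filter, a filter of 5 CPM in 2 libraries, a replicate block, and leaving out each library.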

Additional observations from a re-analysis of the deposited data

How the results depend on the processing

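Meg3, Rian and Mirg kept their direction in all 10 alternatives; Mir341, AF357341, Gm24564 and Gm25856 kept it in the 9 that gave them a value, since the filter of 5 CPM removes them. Dlk1 and Dio3, also with 9, changed sign without knockout 2 (−0.09 and −0.19). With a filter of 5 CPM, 2 other rows of the interval were tested and 2 were lower, in place of 14; leaving out single libraries gave 8 to 15. The higher genes of the whole table, 2877, ranged from 1915 to 2995 with single libraries left out. Flanking genes that were higher numbered 2, but 1 with DESeq2, 1 with no filter, and 1 to 3 with single libraries left out. The regulators that were higher, 8, ranged from 5 to 8, and those that were lower, 5, from 3 to 6, with single libraries left out. Other maternally expressed genes that were higher rose from 3 to 5 with library size scaling, and those that were lower, 3, ranged from 2 to 5 with single libraries left out. Gm3379 turned from 0.26 to −0.02 without control 1 and to −0.43 without knockout 2, and was 0.72 without knockout 1. The cause was not tested in these cases, apart from the fewer rows that the stricter filter leaves. Of the values of the 71 named genes that were not members, 655 held, 29 lost their call, 3 gained it and 2 reversed. Supt16, higher by 0.19 (adjusted p = 0.018, edgeR), lost its call without either control.

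The labels number the libraries in each group, but the deviations of same-numbered libraries hardly correlated over all genes tested (r = 0.00782). No pairing was seen this way, and whether same-numbered libraries share a batch was not tested. With the replicate block 3072 genes were higher and 3216 lower, against 2877 and 3000 without it, and 14 other rows of the interval were lower in both fits. Rows with few reads, such as Dlk1, Dio3, Rtl1 and most small RNAs, are limited by depth.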
